A study of Caenorhabditis elegans with 4 samples.

Results

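Isolated RNA polymerase II (Pol II) peaks are listed binding regions that stand alone on their chromosome. They were chosen by listed position alone: a peak had to be under 2000 bp wide and to have at least 10000 bp free of listed peaks on both sides. In larvae of the nematode Caenorhabditis elegans, 585 of 10731 listed peaks (5.45%) met this rule. Of the peaks left out, 796 were 2000 bp wide or wider, of which 45 had gaps as long on both sides. The remaining 9350 peaks under 2000 bp are called other peaks below, and they include those at chromosome ends, since 12 peaks in the list had no neighbour on a side.

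Pol II transcribes protein-coding genes and many small nuclear RNAs, and it is often concentrated near the starts of the genes it transcribes. The C. elegans genome is compact, with short distances between genes, and many genes lie in operons, groups transcribed from a shared promoter. Genes expressed in most tissues are frequent in the centres of the autosomes, whereas the arms are richer in repeats and in genes of fast-changing families.

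The list combines 2 ChIP DNA samples with 2 input DNA samples, which are chromatin DNA sequenced without precipitation. All 4 samples are of wild-type N2 hermaphrodites, the reference laboratory strain, at the L4 stage, the last of the larval stages, grown at 20 °C and crosslinked with 2% formaldehyde. The antibody named for the ChIP samples is 8WG16, a mouse monoclonal against the repeated tail of the largest Pol II subunit; the protocol text speaks instead of embryos and a GFP antiserum, and the stage and antibody labels were followed. Whole worms were used, so binding in few cells and weak binding in many cannot be told apart. The list has 1 q-value per peak, adjusted by the authors for multiple testing, and none per sample. There is therefore no replicate error, and sequencing depth is unknown here. Peak strength below is −log10 of the deposited q-value. Position, width and q-value all come from the same comparison of ChIP with input, so every difference below is a description of this list and none was tested. No gene or sequence was assigned, because no genome or annotation of the build of the list, WS190, was used here.

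Isolated peaks were spread over the chromosomes far more evenly than peaks in general. The sex chromosome is X, and I to V are autosomes. Peak density ran from 62.5 per Mb on X to 175 per Mb on I, with Mb counted to the end of the last listed peak. Isolated peaks ran from 4.78 per Mb on II to 7.40 per Mb on X. X carried 131 of them, V 127, IV 109, I 74, II 73 and III 71. The order of the isolated density was X, IV, V, III, I and II, so the chromosome with the fewest peaks per Mb had the most isolated ones.

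As a share of the peaks of a chromosome, isolated peaks were most frequent where peaks were sparse. On X they made up 11.8% of 1108 peaks (exact Clopper-Pearson binomial interval 9.98 to 13.9%) and on V 8.83% of 1438 (7.42 to 10.4%). They were 5.72% of the peaks on IV, 4.17% on II, 3.75% on III and 2.81% on I. Over the autosomes together the share was 4.72% (4.30 to 5.16%). The intervals cover counting error only and treat peaks as independent, and a lower peak density by itself lengthens gaps.

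What density alone would give was computed with a closed formula, in which the peaks of a chromosome keep their number, widths and smallest gap (200 bp) and the remaining length is divided evenly at random. Even placement gave 984 isolated peaks in all, more than the 585 listed. X was expected to have 263 and had 131, a ratio of 0.499, and V was expected to have 297 and had 127, a ratio of 0.427. The ratio was 0.55 on II, 0.682 on IV and 0.856 on III. Only on I did the list hold more isolated peaks than even placement, 74 against 48.9, a ratio of 1.51. That excess on I depended on how neighbouring calls were counted: when peaks closer than 500 bp were joined first the ratio was 0.909, and it was 0.711 when peaks closer than 1000 bp were joined. It also depended on the gap limit, with a ratio of 0.562 at 5000 bp and 19.4 at 20000 bp. The latter rests on a very small expected number, with bounds of 11.3 to 31.1 for counting error alone, and is hardly comparable with the other ratios. At 20000 bp the ratio was 0.881 on X and 1.32 over all chromosomes, with more isolated peaks listed in all than even placement gave.

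**Figure D1:**
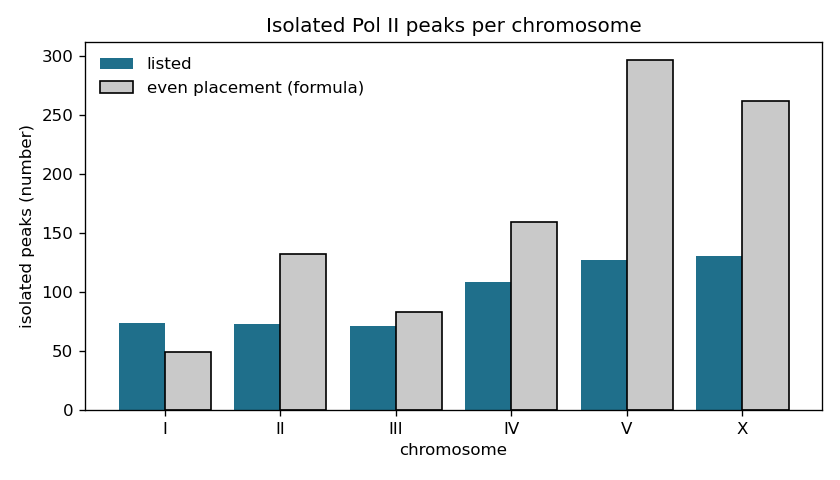
Number of isolated peaks (vertical axis) on each chromosome, as listed (dark bars) and as given by the formula for even placement (light bars, no error). X and V have 131 and 127 listed isolated peaks against 263 and 297 by the formula, and only on I is the listed number, 74, above it.

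Within the autosomes, isolated peaks were a smaller share of the peaks in the centres than in the arms. Each chromosome was divided into 3 equal segments, left, centre and right. Isolated peaks were 3.12% of the 3975 peaks in the autosomal centres and 5.84% of the 5648 in the arms. The centre had the lowest share on each of the 6 chromosomes, X included, where it was 10.4% against 14.2% on the left and 11.2% on the right. Per Mb the centre was also below the arms on each chromosome, by amounts that varied. The autosomal centres held 4.51 isolated peaks per Mb and the arms 6.01. On I the centre had 2.79 and the arms 5.98, on III 3.49 and 5.99, on IV 4.98 and 6.87, and on X 6.44 and 7.88. On II the values were 4.71 and 4.81, and on V 5.90 and 6.19, the smallest differences of the 6 chromosomes. The centre of I, with 218 peaks per Mb the densest segment of all, held 14 isolated peaks.

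**Figure D2:**
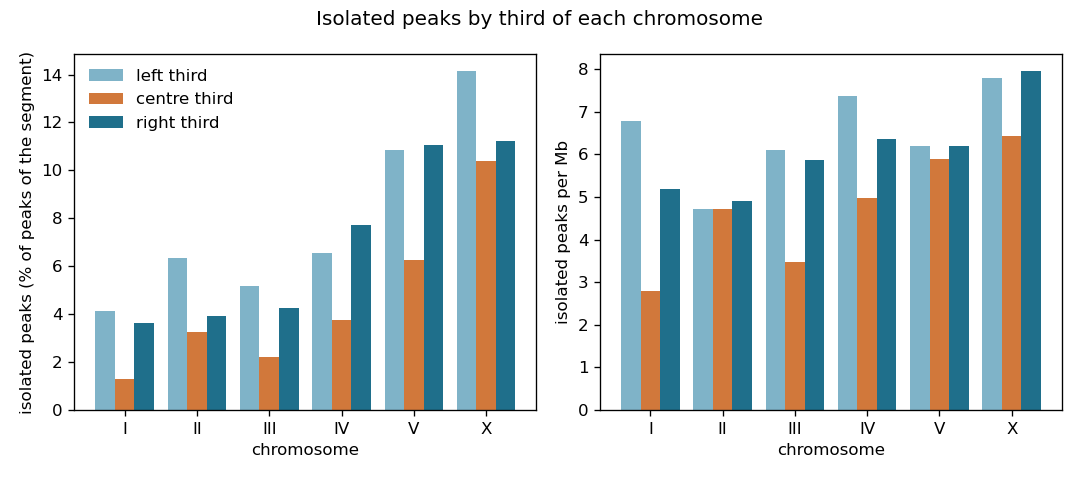
Isolated peaks in the left, centre and right segments of each chromosome, as a percentage of the peaks of the segment (left panel) and per Mb (right panel). The centre has the lowest percentage on every chromosome; per Mb, centres are clearly lower on I (2.79) and III (3.49) and close to the arms on II (4.71) and V (5.90).

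In windows of 1 Mb, isolated peaks were present almost everywhere. Of 97 full windows, 96 held at least 1 isolated peak, and the median was 6. The exception was the window from 8000001 to 9000000 on I, where 234 peaks lay without any isolated one. The window with the most, 11 isolated among 58 peaks, was on V from 18000001 to 19000000. In the 12 windows with under 50 peaks the mean was 6.33 isolated peaks, in the 33 windows with 50 to under 100 peaks it was 6.79, in the 34 with 100 to under 150 it was 5.65, and in the 18 with 150 or more it was 4.22. Single windows held between 0 and 11. The share of isolated among the peaks ran from 15.7% in the sparsest windows to 2.31% in the densest.

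Many isolated peaks lay next to one another. In 170 cases neighbouring peaks were both isolated, and 283 of the 585 (48.4%) lay in 113 runs of at least 2. The share in such runs was highest on X (55.0%) and V (53.5%) and lowest on II (37.0%). The longest run, of 7 isolated peaks, was nevertheless on II, from 1519962 to 2204420. Its members were 73 to 371 bp wide with strengths from 2.08 to 6.85, and the gaps inside it ran from 11.2 to 265 kb. Of the gaps on the far side of the neighbours of isolated peaks, 31.4% of 1169 were at least 10000 bp. Among all gaps the share was 21.1%, and beyond the ends of gaps that themselves reached 10000 bp it was 27.8%, the closer comparison because the neighbour of an isolated peak always borders such a gap. These shares pool the chromosomes, on which gaps of at least 10000 bp ranged from 14.2% of gaps on I to 34.7% on X. The excess was not compared within chromosomes.

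The flanking peaks that were not isolated themselves had about the same overall width as the rest of the list, but not on every chromosome. There were 826 of them, with a median width of 414 bp and a median strength of 5.21, against 415 bp and 5.63 for the 9320 remaining peaks that were not isolated. On III, IV, V and X the flanking peaks were narrower, with medians of 284, 421, 436.5 and 561 bp against 378, 459, 541 and 605.5 bp, and on I and II slightly wider (319 against 312 bp and 412 against 404 bp). Peaks of 2000 bp or more were 11.4% of these flanking peaks and 7.53% of the remaining ones. The rule itself raises the first share. Of 1109 distinct flanking peaks, 283 were isolated, hence under 2000 bp, and were taken out. That was 25.5% of flanking peaks, whereas 5.45% of all peaks were isolated. The share of peaks of 2000 bp or more was higher among the flanking peaks that were not isolated on II (12.6% against 6.70%), IV (12.5% against 8.57%), V (14.5% against 11.2%) and X (15.2% against 11.9%), and lower on I (4.55% against 4.74%) and III (4.55% against 6.76%). The same removal of isolated peaks affects the share on each chromosome, and how much it adds was not computed. Of the far gaps of the flanking peaks that were not isolated, 35.6% were under 1000 bp, and of all gaps 35.8% were. These shares are not comparable. A flanking peak under 2000 bp that is not isolated must have a far gap under 10000 bp. All gaps, in contrast, include the 21.1% of at least 10000 bp.

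The gaps around isolated peaks were uneven in size. The shorter of the gaps on either side, which the rule used, had a median of 16.4 kb with quartiles of 12.6 and 24.0 kb, and the longer one a median of 36.4 kb with quartiles of 22.6 and 56.5 kb. The 32 peaks with at least 50 kb on both sides included 22 on V or X (68.8%), against 36.2% of the 141 peaks with a shorter gap below 12.5 kb. The most isolated peak lay on V from 17598215 to 17599355, with 241 kb to its left and 174 kb to its right; it was 1141 bp wide with a strength of 6.68. Next came a pair of neighbours on II, from 1767576 to 1767776 (strength 2.68) and from 1663031 to 1663124 (strength 2.19), which share a gap of 104 kb between them. The fourth, on V from 16225439 to 16225989, had a strength of 17.6 at a width of 551 bp, the highest among the 10 most isolated peaks. The other 6 lay on V (18339126 to 18339839 and 640346 to 640737), X (1964893 to 1965228, 6938036 to 6938226 and 1216321 to 1216421) and III (1677351 to 1677456), with strengths from 2.16 to 4.64. Of the 10, 8 had a strength under 5, against 64.4% of all isolated peaks.

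Just inside the gap limit were peaks on III from 6709979 to 6710262 (shorter gap 10015 bp, strength 3.004), on IV from 2688486 to 2688885 (10022 bp, strength 4.31) and on IV from 11718598 to 11719166 (10030 bp, strength 5.41). Just outside were peaks on V from 15156598 to 15156797 (9981 bp, strength 2.40), on II from 8101930 to 8101935 (9964 bp, strength 4.63) and on V from 6487923 to 6489148 (9899 bp, strength 7.77).

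Isolated peaks were narrower than other peaks under 2000 bp. Their median width was 309 bp (quartiles 196 and 470) against 377 bp (207 and 666). The difference was present on every chromosome and largest on X, where the medians were 362 and 546 bp. On I they were 259 and 300 bp, on II 277 and 374.5 bp, on III 270 and 349.5 bp, on IV 309 and 415 bp, and on V 356 and 460 bp. The narrowest calls were about equally frequent: 10.6% of isolated and 9.71% of other peaks were under 100 bp, and single-base calls numbered 2 and 34. Isolated peaks were instead more often 250 to under 500 bp wide (41.0% against 30.8%) and less often 500 to under 1000 bp (15.9% against 25.3%) or 1000 to under 2000 bp (6.50% against 12.1%). On I no isolated peak reached 1000 bp, although 197 other peaks there were 1000 to under 2000 bp wide.

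Seen from the side of width, peaks under 500 bp stood alone more often than those of 500 to under 2000 bp on each chromosome. Of the 6296 peaks under 500 bp with neighbours on both sides, 454 (7.21%) were isolated, and of the 3628 from 500 to under 2000 bp 131 (3.61%) were, a ratio of 2.00. The ratio was 5.27 on I (3.80% against 0.722%, the latter only 5 of 693 peaks) and 3.24 on X (20.4% against 6.29%). It was 3.02 on III, 2.53 on II, 1.75 on IV and 1.67 on V. The highest share in any width class of any chromosome was on X, where 34 of 135 peaks 100 to under 250 bp wide (25.2%) were isolated. Joining peaks closer than 1000 bp first lowered the overall ratio to 1.47, with values from 1.29 on V to 2.31 on I. Joining turns close narrow peaks into broader ones, which by construction changes both sides of the ratio.

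Isolated peaks were also weaker when width was not considered. Their median strength was 3.73 (quartiles 2.69 and 6.23) and that of other peaks 5.16 (3.18 and 9.68). A q-value above 0.001, near the weak end of the list, was found for 208 isolated peaks (35.6%), against 22.3% of all peaks under 2000 bp. A strength of at least 10 was reached by 79 isolated peaks (13.5%), against 23.3% of all peaks under 2000 bp. Wider peaks had smaller q-values: Spearman's rho of strength with width was 0.54 across the 585 isolated peaks and 0.62 across the 9350 other peaks, which are not independent of each other.

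**Figure D3:**
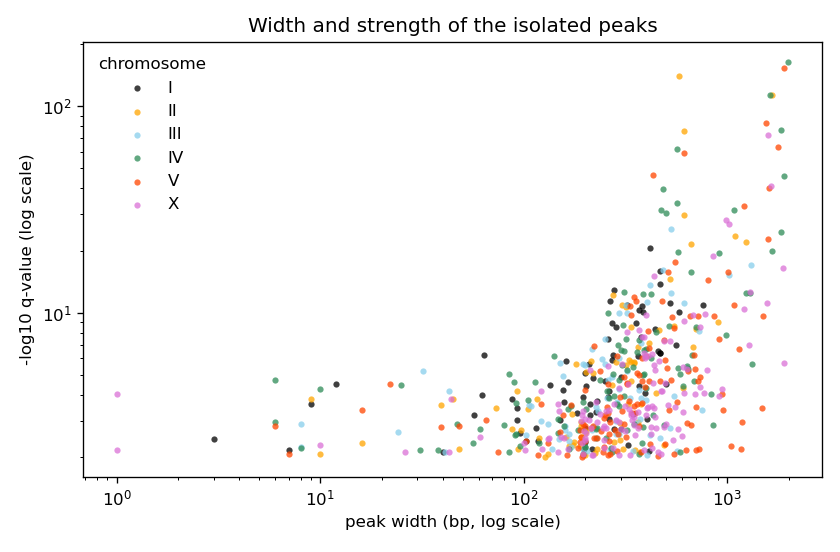
Width (horizontal axis, bp, log scale) and −log10 q-value (vertical axis, log scale) of the 585 isolated peaks, coloured by chromosome. Most points lie below a strength of 10; 4 peaks between 566 and 615 bp wide and 8 peaks of at least 1500 bp exceed 50.

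At equal width the difference in strength was smaller. At equal width and chromosome its weighted average was close to 0, but this average combined values of opposite sign. The weakest peak in the list had a strength of 2.001. Medians in the narrow classes lie near that floor, which leaves little room for isolated peaks to be lower. In the 4 width classes under 1000 bp the isolated peaks had the lower median: 2.82 against 2.98 below 100 bp, 2.76 against 3.40 from 100 to under 250 bp, 4.32 against 5.35 from 250 to under 500 bp, and 5.48 against 8.27 from 500 to under 1000 bp. From 1000 to under 2000 bp the 38 isolated peaks had the higher median, 18.4 against 17.2. Weighted by the number of isolated peaks per class, the difference of medians was -0.97, with bounds of -1.71 to 0.60 from binomial intervals of the isolated medians. It was -0.16 with width classes of 100 bp, and from -0.54 (without I) to -1.30 (without IV) when 1 chromosome was left out. Strength at a given width differed between chromosomes: other peaks from 250 to under 500 bp had a median of 7.09 on I, 3.98 on V and 3.80 on X, and isolated peaks were a small share of peaks on I and a large one on V and X. Within the same chromosome and width class, over 27 combinations that held at least 5 peaks of each kind and 580 of the isolated peaks, the difference was -0.14. Its bounds, built in the same way, ran from -1.64 to 5.86. Isolated peaks had the lower median in 19 of these 27 combinations. The combined value turned positive in 5 of 16 alternative settings, so it gives no stable direction.

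Values below and above 1000 bp had opposite signs, although the bounds within chromosome and width class cannot settle either sign. Among isolated peaks under 1000 bp the difference within chromosome and width class was -0.48, with the isolated peaks lower in 19 of 24 combinations; when segments were matched as well it was -0.15, lower in 28 of 47. Among those of 1000 to under 2000 bp it was 5.40, from 33 isolated peaks on IV, V and X. Bounds from the binomial intervals of the isolated medians ran from -1.42 to 2.57 below 1000 bp and from -5.29 to 60.2 above. They set every combination to its lower or its upper limit at once, so they are wider than an interval of the weighted difference. Both include 0, which therefore decides nothing. Matched by width class alone, the difference was -1.12 (bounds -1.50 to -0.35) below 1000 bp and 1.19 (-4.85 to 14.3) above. Only the bounds below 1000 bp excluded 0 in that matching, which leaves differences between chromosomes in the value. On IV the isolated peaks of 1000 to under 2000 bp had a median of 28.1, against 15.8 for other peaks of that width. The medians were 12.5 against 8.12 on X and 13.4 against 12.3 on V. The numbers of isolated peaks on IV, X and V were 10, 9 and 14. By chromosome the weighted difference was -1.35 on III, -0.63 on I, -0.22 on V, -0.02 on X, 0.08 on II and 0.75 on IV. On II the class from 500 to under 1000 bp went the other way from the remaining chromosomes, with a median of 11.8 for 10 isolated peaks and 8.57 for 395 others.

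**Figure D4:**
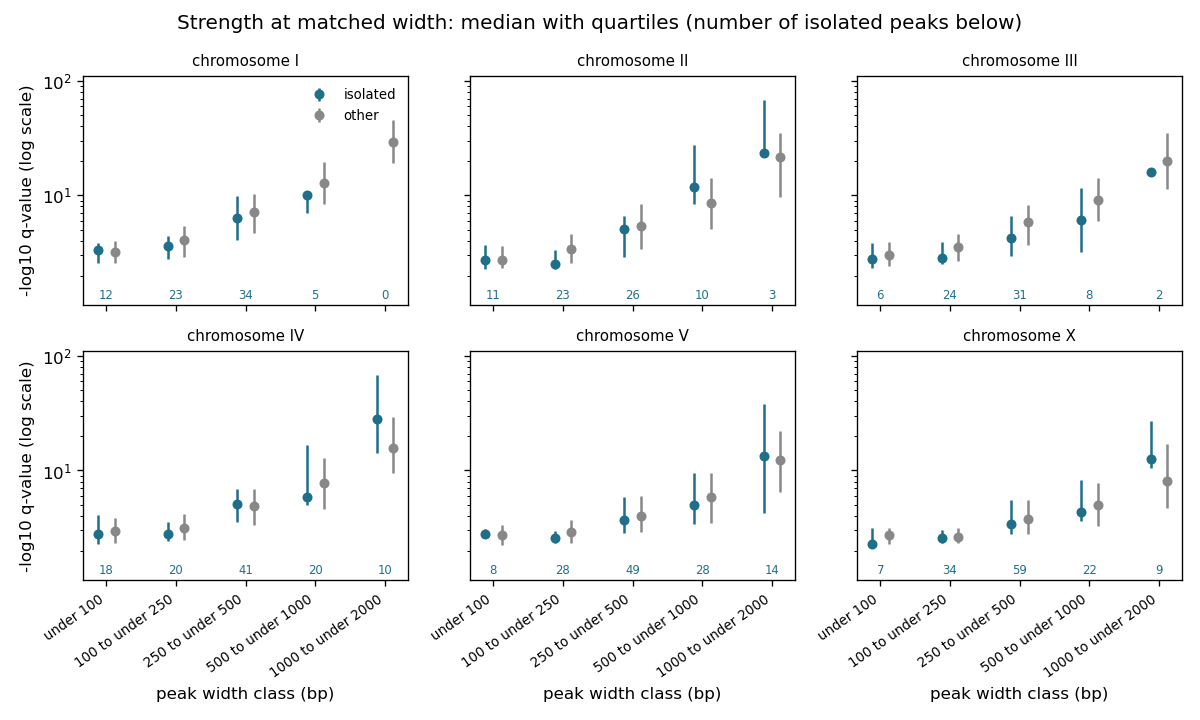
Median −log10 q-value (points, log scale) with quartiles (bars) by width class in bp, for isolated (dark) and other peaks (grey), 1 panel per chromosome; the number of isolated peaks stands below each pair. Isolated medians are mostly slightly lower below 1000 bp and higher from 1000 to under 2000 bp on IV (28.1 against 15.8) and X (12.5 against 8.12).

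Relative strength was lower in the isolated peaks nearest to the gap limit than in less isolated peaks. For each peak under 2000 bp the median strength of its chromosome and width class was subtracted. The median of this relative strength was 0.13 for the 3380 peaks whose nearer neighbour lay under 500 bp away and between -0.07 and 0.02 in the 4 classes from 500 to under 10000 bp. It was -0.34 for the 370 isolated peaks with a shorter gap of 10000 to under 20000 bp, of which 57.8% were below the median of their class, and -0.13 for the 215 with at least 20000 bp. The binomial intervals of these medians were -0.49 to -0.12 from 10000 to under 20000 bp and -0.42 to 0.13 from 20000 bp, against -0.14 to 0.22 from 5000 to under 10000 bp and 0.03 to 0.25 under 500 bp; they treat peaks as independent and describe this list alone. Single peaks varied far more, with quartiles of -1.28 and 1.38 in the class from 10000 bp. Width was matched only by class. Median width was 457 bp under 500 bp, 301 bp from 5000, 284.5 bp from 10000 and 349 bp from 20000 bp. With width classes of 100 bp, the difference within chromosome and width class was -0.06 over all isolated peaks. Relative strength by gap was not computed with such fine classes. Among the isolated peaks Spearman's rho between the shorter gap and relative strength was 0.05 (n = 585); the points share libraries, depth and calling, and no trend with distance was visible among them.

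**Figure D5:**
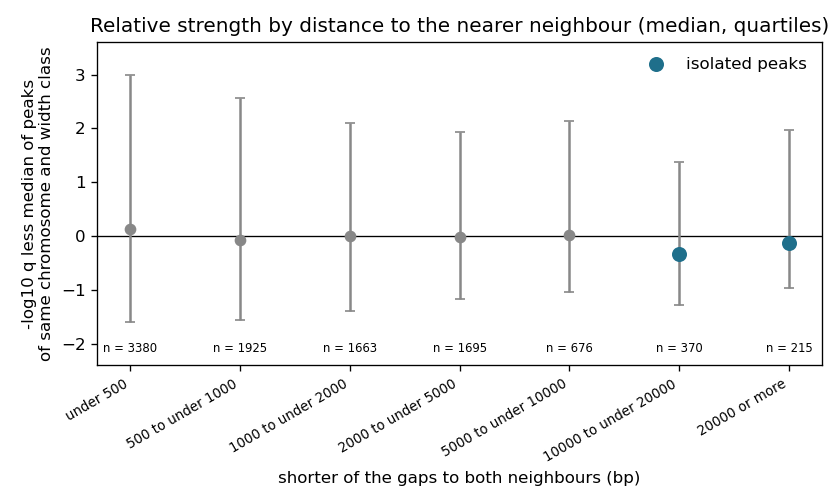
Relative strength (−log10 q-value less the median of peaks of the same chromosome and width class) by the shorter of the gaps to both neighbours, as median (points) with quartiles (bars) and number of peaks. The isolated peaks are the last 2 classes (dark points), at -0.34 and -0.13, and the quartile bars, which show the spread of single peaks, overlap between classes.

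A few isolated peaks were among the strong ones of the list. A strength of at least 50 was reached by 12 isolated peaks (2.05%), against 1.45% of all peaks under 2000 bp. They were 4 on IV, 4 on V, 3 on II and 1 on X, with none of 74 on I or of 71 on III. Among other peaks 1.93% reached it on I and 0.998% on III, shares at which few or none would be found among so few isolated peaks. In the class from 1000 to under 2000 bp, 8 of 38 isolated peaks (21.1%) and 104 of 1131 other peaks (9.20%) did so, and in the class from 500 to under 1000 bp 4 of 93 (4.30%) and 27 of 2370 (1.14%).

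The strongest isolated peak was also the widest, 1995 bp on IV from 14984929 to 14986923, with a strength of 163 and gaps of 25.1 and 24.8 kb. The second, on V from 5699803 to 5701704, was 1902 bp wide with a strength of 152 and gaps of 11.9 and 10.3 kb. Another of the 3 widest, on IV from 13057552 to 13059455, had a strength of 45.7 at nearly the same width, 1904 bp. Of the 10 strongest, 8 were wider than 1500 bp. They included peaks on II from 13521076 to 13522723 (strength 113), on IV from 11225357 to 11226979 (113) and from 7753316 to 7755149 (76.4), on V from 11146775 to 11148317 (82.8) and from 2730045 to 2731811 (63.7), and on X from 14489833 to 14491418 (72.4). The last of these was stronger than any other peak under 2000 bp on X, of which the highest had 57.7. On the chromosomes with no such peak, the strongest isolated ones were narrow: 417 bp on I from 10858064 to 10858480 (strength 20.7) and 527 bp on III from 5653561 to 5654087 (strength 25.3).

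A group of 4 narrow isolated peaks had strengths far above their width class; it was picked out after its values were seen. On II the peak from 14017974 to 14018552 reached 140 at a width of 579 bp, with gaps of 41.6 and 14.1 kb, and the peak from 15025434 to 15026043 reached 76.0 at 610 bp. On IV the peak from 4347501 to 4348066 reached 62.2 at 566 bp, and on V the peak from 8247527 to 8248141 reached 59.1 at 615 bp. Other peaks of 500 to under 1000 bp had medians of 8.57 on II, 7.81 on IV and 5.83 on V. The 4 widths lay within 49 bp of each other, and each had a neighbour 11.8 to 14.1 kb away on its nearer side. Across all isolated peaks the shorter gap had a lower quartile of 12618 bp and a median of 16378 bp. The 50 isolated peaks under 1000 bp with a strength of at least 10 were 265 to 980 bp wide.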

How the data were processed

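The authors called peaks with PeakSeq on WormBase build WS190, per the file headers and source field, and deposited 1 combined list of positions with a q-value (an adjusted p-value, ChIP against input) per peak. The aligner, read filters, versions and q-value limit are not given in the sources used here. The largest q-value in the list was 0.00998. No strand or per-sample value was used.

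Peaks were sorted by chromosome and start; width was end minus start plus 1, a gap the bases between neighbours, and position the midpoint. Even placement used the formula (n − 2) × share under 2000 bp × (1 − 2 × (10000 − smallest gap) / free length) to the power n − 1, per chromosome. Width classes had limits at 100, 250, 500, 1000 and 2000 bp. The formula and the matched difference were tested on simulated lists. Software was Python 3.11.15 with matplotlib 3.10.9, scipy 1.17.1, pandas 2.3.3 and numpy 2.4.6.

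The members, classes and comparisons were chosen with earlier results of these data known. Peaks named are the 10 strongest, the 10 with the longest shorter gap, the 3 widest, the strongest per chromosome and 3 on either side of the gap limit; 2 narrow strong peaks on IV and V were added after their values were seen. The ratios to even placement under other settings, the matching by segment, the strength limits of 10 and 50 and the split at 500 bp were added after the values were seen. Gene starts were not used.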

Additional observations from a re-analysis of the deposited data

How the results depend on the processing

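The number of isolated peaks, 585, was 1261 with a gap limit of 5000 bp and 215 with 20000 bp, by construction, and 601 to 657 in the other settings. In the same order as gap limits of 5000 and 20000 bp, the share on X was 20.1 and 5.42%, on the autosomes 10.8 and 1.61%, in autosomal centres 7.82 and 1.01%, and in arms 12.9 and 2.04%. With q-values of at most 0.001 (8512 peaks) these shares were 14.4, 6.33, 4.47 and 7.66%. With peaks closer than 500 bp joined they were 14.4, 6.44, 4.42 and 7.85%, and with 1000 bp 17.1, 8.52, 5.81 and 10.4%. With peaks of at least 100 bp the autosomes had 5.36% and their centres 3.79%, and with the centre from 0.25 to 0.75 of the span the arms had 6.69%. X stayed above the autosomes (ratio 1.87 to 3.36) and arms above centres (1.65 to 2.02) in all 7 settings that change the rule or the list. Median width was 349 bp at a limit of 20000 bp, 368 bp with q-values of at most 0.001 and 344 bp with 1000 bp joined.

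The strength difference at equal width turned to 0.31 with no width limit and stayed negative in the other 14 alternatives (-1.30 to -0.16). At equal width and chromosome, -0.14 turned positive in 5 of 16 alternatives: 0.20 and 0.056 at gap limits of 5000 and 20000 bp, 1.68 with no width limit, 0.021 without III and 0.17 when segments were matched too. Its sign is therefore not settled by this list; the cause was not tested.

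Against even placement the ratio over all chromosomes was 0.432 at 5000 bp, 1.32 at 20000 bp and 0.518 with q-values of at most 0.001. On I it was 0.562, 19.4 (on a very small expected number), 0.909 with 500 bp joined, 0.711 with 1000 bp joined, 1.18 with peaks of at least 100 bp and 1.18 with q-values of at most 0.001. On X it was 0.881 at 20000 bp. No paired analysis was possible because only a list combined over both replicates was used, and for the same reason neither replicate could be left out. Depth is unknown, so what it limits could not be given.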

Other observations

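The 45 peaks that had at least 10000 bp free on both sides but were 2000 bp wide or wider were outside the rule. They were 5.66% of the 795 peaks of that width with neighbours on both sides, a share above the 3.25% of peaks of 1000 to under 2000 bp and below the 7.69% of peaks of 250 to under 500 bp. Their median width was 2730 bp (2078 to 7342). Their median strength was 72.2 (3.02 to 269), against 55.3 for peaks of 2000 bp or more with a nearer neighbour, with width not matched within this class. On X they were 12 of 122 (9.84%), on II 9 of 119 (7.56%) and on V 11 of 152 (7.24%), and on I 2 of 121 (1.65%).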
